A study of Mus spretus with 8 samples.

Results

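Lysosomes break down proteins, glycans and lipids with acid hydrolases, and a proton pump in their membrane, the V-ATPase, keeps their interior acidic. Autophagy wraps cytoplasm and organelles in a double membrane and delivers them to lysosomes, a route that liver cells use heavily to turn over mitochondria, glycogen and lipid droplets. The transcription factors TFEB and TFE3 switch on many genes of both systems when they enter the nucleus. A list of 45 lysosome and autophagy genes was examined here, and 44 of them had a named probe among 22471 genes. The gene Optn was not analysed here. Each gene had 1 value per mouse, from its probe with the highest mean signal over the 8 arrays.

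The livers were those of males of SPRET/EiJ, an inbred strain of the species Mus spretus, with 1 array per mouse. Their age is given as 7 weeks, without saying whether at the start or the end of the 30 days of feeding. The 4 control mice ate Harlan diet with corn oil for 30 days. The 4 DDE mice ate the same diet with p,p'-DDE, the long-lived breakdown product of the insecticide DDT. It was dissolved in the oil and given at 450 mg/kg of feed. The comparison asks which of these liver genes differed after the exposure. All values are log2 signals on a scale that ends at 16, so a difference of 1 is a doubling, and groups are given as mean ± SD with n = 4 mice.

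The background level of an array, taken from probes for olfactory and vomeronasal receptors, lay between 7.55 and 7.81. All 44 genes had a mean above it and 41 exceeded it on all 8 arrays. Patches where neighbouring spots were jointly brighter or darker than on the other arrays, called stained here, covered 0.521% to 9.50% of an array's spots, most on control 4 and DDE 4, and touched at least 1 value of 15 of the 44 genes. Control 4 was the lowest of the 4 controls for 35 of the 44 genes, against 57.4% of all genes above background, and its part in the results below was not tested except where values without it are given. Cyp2b10, a drug-metabolizing enzyme and classical target of the nuclear receptor CAR, was at 9.01 ± 0.37 in controls and 15.97 ± 0.032 after DDE. Of the hepatocyte markers measured, 9 of 9 were above background on every array, with a mean log2 signal of 14.39 to 14.63 in controls and 14.22 to 14.54 after DDE. Of these 9, 0 rose and 1 fell, the apolipoprotein gene Apoa1 (-0.60, limma adjusted p = 0.04). Alb, Apoc3, Fgb, Apoa1, Ttr and Ass1 had control means of 15.81 to 15.98, near the top of the scale at 16. A rise of these markers could therefore hardly show. Among all genes above background 4.55% rose and 1.34% fell.

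Few single genes of the list passed the test. Most autophagy factors and pump subunits had higher means in the DDE livers, while the hydrolases were divided. Of the 44 genes, 2 rose, the ATG8-family gene Gabarapl2 and the acid ceramidase gene Asah1. The 1 that fell was Gla, the gene of alpha-galactosidase A, and 41 did not pass the limma test at an adjusted p of 0.05. Among all genes 2.58% were called higher and 0.774% lower, and among the 12570 genes above background 4.55% and 1.34%, so the share called in the list was close to the background in both directions. With an intensity trend and robust variance in limma 0 of the 44 passed, and without control 4 and DDE 4 only Gla did. Before adjustment, 11 of the 44 were higher and 5 lower with p under 0.05, against 11.4% and 4.57% of all genes and 18.4% and 7.12% of those above background. The groups did not overlap for 8 genes with higher and 3 with lower DDE values, against 8.48% and 4.06% of all genes and 13.1% and 5.74% of those above background.

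The median change over genes differed between the roles. For the 15 measured autophagy factors it was 0.52 on the log2 scale, with 12 of 15 positive. For the 6 V-ATPase subunits of the list it was 0.47, with 4 of 6 positive. The 19 hydrolases and their activator had a median of 0.01, with 10 of 19 positive. The same median over all genes above background was 0.07, with 54.9% positive. These medians are descriptions of lists and carry no test. Relative to the control mean of each gene, the median autophagy factor stood at 0.31 to 0.73 in the 4 DDE mice and at -0.40 to 0.22 in the controls, without overlap. V-ATPase subunits stood at 0.26 to 0.45 against -0.59 to 0.34, and hydrolases at -0.32 to 0.08 against -0.41 to 0.23. Control 4 was the lowest control in all 3 roles. Without control 4 the median change was 0.39 for autophagy factors with 12 of 15 positive, 0.25 for V-ATPase subunits and -0.22 for hydrolases, and 0.01 over all genes above background.

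**Figure D1:**
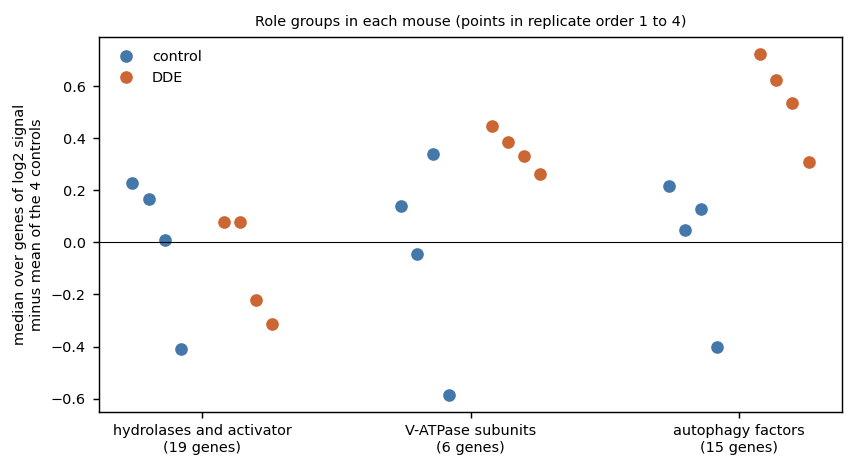
Each point is 1 mouse: the median over the genes of a role of the log2 signal minus the mean of the 4 controls, with controls in blue and DDE in orange. The 4 DDE points of the autophagy factors, 0.31 to 0.73, lie above all controls, whereas the hydrolases overlap, and control 4 is the lowest control in each role.

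**Figure D2:**
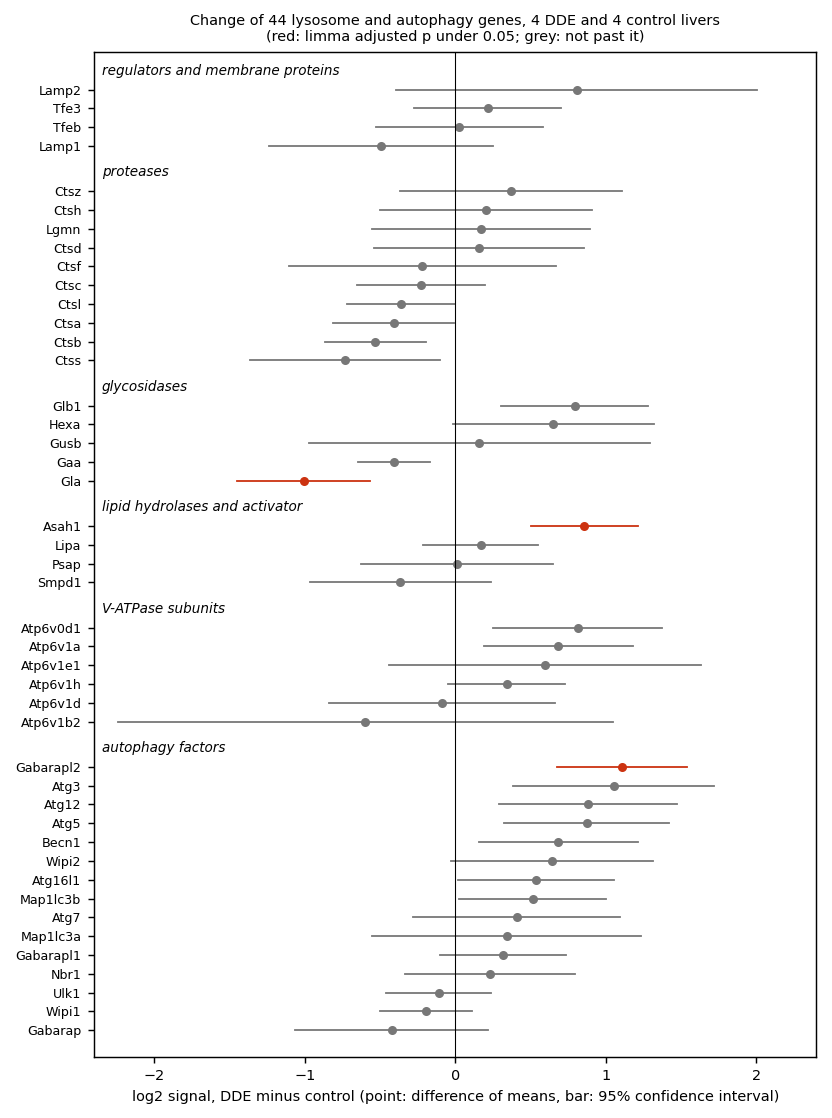
Points give the log2 signal in DDE minus control for the 44 genes by role, and bars the 95% confidence interval from limma with n = 4 mice per group. Red marks the 3 genes past an adjusted p of 0.05: Gla lower, Asah1 and Gabarapl2 higher.

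The ATG8 family, small ubiquitin-like proteins that are attached to lipid on the growing autophagosome and hold both membrane and cargo, held 1 of the 2 genes that rose. Gabarapl2, also known as GATE-16, had signals of 12.43, 12.23, 12.29 and 11.78 in controls 1 to 4 and 13.26, 13.01, 13.66 and 13.23 in DDE 1 to 4. All 4 DDE values were above all controls. The gene rose from 12.18 ± 0.28 to 13.29 ± 0.27, or 2.16-fold (95% confidence interval 1.60 to 2.91, limma adjusted p = 0.0296). The call held without control 1, control 4 or DDE 4 and was lost without any 1 of the other 5 mice, with adjusted p from 0.0606 to 0.0823, while the change stayed between 0.97 and 1.20.

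Gabarap itself gave opposite answers at its pair of probes. The brighter probe read 13.14, 13.45, 13.79 and 12.96 in controls and 13.08, 13.21, 12.22 and 13.14 after DDE, a difference of -0.42 that did not pass (adjusted p = 0.568). The dimmer probe read 11.78, 11.45, 11.59 and 11.00 in controls and 12.61, 12.31, 13.05 and 12.98 after DDE, 2.43-fold higher with no overlap (adjusted p = 0.033). The gene's direction therefore depends on the probe, and which probe reports the transcript better was not tested. Gabarapl1, the closest relative of Gabarap, had 15.90, 15.54, 15.15 and 15.96 in controls and 15.95, 15.94, 15.95 and 15.98 after DDE. All 4 DDE values and 2 controls lay within 0.2 of the top of the scale, so the size of the difference is capped there (0.32, adjusted p = 0.493).

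Map1lc3b encodes LC3B, the protein most often used to mark autophagosomes, and it was measured by 10 spots on every array. The spot with the highest mean read 11.48, 11.47, 12.20 and 11.30 in controls and 12.30, 12.26, 11.88 and 12.07 after DDE (0.52, adjusted p = 0.303). Its value in control 3 was the highest of the 10 spots of that array, which had a median of 11.38, and 2 of its control values were on stained spots. The change was positive at 10 of 10 spots, from 0.36 to 1.29 with a median of 0.71, and 1 spot passed on its own (adjusted p = 0.0272). The median of the 10 spots was 11.39, 11.32, 11.38 and 10.91 in controls and 12.02, 11.99, 11.74 and 12.08 in DDE mice. These values did not overlap and differed by 0.71. The median over spots was chosen after they were seen and is a description. The spots may repeat 1 sequence and are not independent measurements of the gene. In a fit over genes with the mean of all spots, Map1lc3b was also past the threshold (0.72, limma adjusted p = 0.0371). Map1lc3a, the gene of LC3A, had 9.69 ± 0.68 and 10.03 ± 0.48 (adjusted p = 0.665).

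The enzymes that attach ATG8 proteins to lipid had higher means in the DDE livers, but none of the 5 measured passed the limma test. Before adjustment, 4 were higher and 0 lower, where 18.4% of genes above background were higher. Atg3, which hands the ATG8 protein to its lipid, read 10.05, 9.64, 9.25 and 8.84 in controls and 10.40, 10.07, 10.77 and 10.75 after DDE. The groups did not overlap, and the difference was 1.05 (95% confidence interval 0.38 to 1.72, adjusted p = 0.115). Atg5, part of the complex that directs lipidation to the membrane, read 11.02, 10.66, 10.71 and 10.18 in controls and 11.50, 11.55, 11.95 and 11.06 after DDE. These values did not overlap either (0.87, adjusted p = 0.113), and 2 of them were on stained spots. With array weights the limma adjusted p of Atg5 was 0.0486. Atg12, which is joined to ATG5, was 0.88 higher at its brighter probe without overlap and 0.11 higher at the other (adjusted p = 0.132 and 0.844). Atg16l1, the third part of that complex, differed by 0.54 and Atg7, which activates both ATG8 proteins and ATG12, by 0.41 (adjusted p = 0.313 and 0.606).

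None of the measured genes that start autophagy passed. Becn1, a subunit of the lipid kinase complex that marks the site of membrane growth, read 9.27, 9.16, 8.46 and 8.41 in controls and 9.55, 9.65, 9.58 and 9.26 after DDE. The lowest DDE value fell just below the highest control, and the difference of 0.69 did not pass (adjusted p = 0.191). Ulk1, the kinase at the head of the pathway, had 12.00, 12.30, 11.87 and 11.57 in controls and 11.90, 11.77, 11.78 and 11.85 after DDE. The DDE values lay within the range of the controls (-0.11, 95% confidence interval -0.46 to 0.24, adjusted p = 0.72). Wipi2, a sensor of the product of the lipid kinase complex, differed by 0.64 and 0.79 at its probes (adjusted p = 0.36 and 0.0761). Its relative Wipi1 differed by -0.20 and 0.17 (smaller adjusted p = 0.584). Nbr1, a receptor that brings ubiquitin-tagged cargo to ATG8 proteins, had 8.94 ± 0.50 and 9.18 ± 0.13 (adjusted p = 0.646).

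V-ATPase subunits belong to the V1 sector, which splits ATP in the cytosol, or the V0 sector, which carries protons through the membrane. None of the 6 in the list passed in limma. Before adjustment, 2 were higher and 0 lower, where 18.4% of genes above background were higher. Atp6v0d1, which joins V0 to the central stalk, read 11.17, 10.91, 11.58 and 10.39 in controls and 11.68, 11.87, 11.98 and 11.77 after DDE. All 4 DDE values were above the controls, by as little as 0.10 at the closest pair (difference of means 0.81, limma adjusted p = 0.143). Atp6v1a, the catalytic subunit, read 10.01, 10.18, 10.65 and 9.67 in controls and 10.56, 10.92, 10.99 and 10.78 after DDE. Only control 3 reached into the DDE values (0.69, adjusted p = 0.158), and the other probe of the gene differed by 0.40 (adjusted p = 0.586). Atp6v1h, a regulatory subunit, read 9.19, 9.08, 9.23 and 8.78 in controls and 9.53, 8.99, 9.53 and 9.60 after DDE (0.34, adjusted p = 0.415). DDE 2 lay below 3 of the controls, the other DDE mice above all of them. The stalk subunits Atp6v1e1 and Atp6v1d differed by 0.60 and -0.09 (adjusted p = 0.617 and 0.905). Atp6v1b2, a subunit of the ATP-binding ring, had a difference of -0.60 with a single stained control value of 10.71, while the other 7 values lay between 7.52 and 8.10, near background. With stained values left out, all 6 subunits had positive changes and their median was 0.51.

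A wider list of the same pathways held 11 more V-ATPase subunits with a probe, of which 2 rose and 0 fell, where 4.55% of genes above background rose. Atp6v0e, a small V0 subunit, read 11.73, 11.54, 11.70 and 11.58 in controls and 12.53, 12.77, 13.03 and 12.58 after DDE. The groups stood far apart relative to their spread, and the gene rose 2.13-fold (95% confidence interval 1.75 to 2.59, limma adjusted p = 0.00954), past the threshold in all 8 fits that left out 1 mouse. Atp6v1c1, a V1 stalk subunit that helps hold the sectors together, read 8.32, 8.49, 8.46 and 8.39 in controls and 9.06, 9.25, 9.48 and 9.12 after DDE. It rose 1.76-fold (1.49 to 2.08, adjusted p = 0.0133), with adjusted p = 0.0532 without DDE 2 and the threshold passed without any 1 of the other mice. Over all 17 subunits measured, 14 had positive changes and the median was 0.60. The median was 0.26 without control 4 and 0.46 without control 4 and DDE 4.

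**Figure D3:**
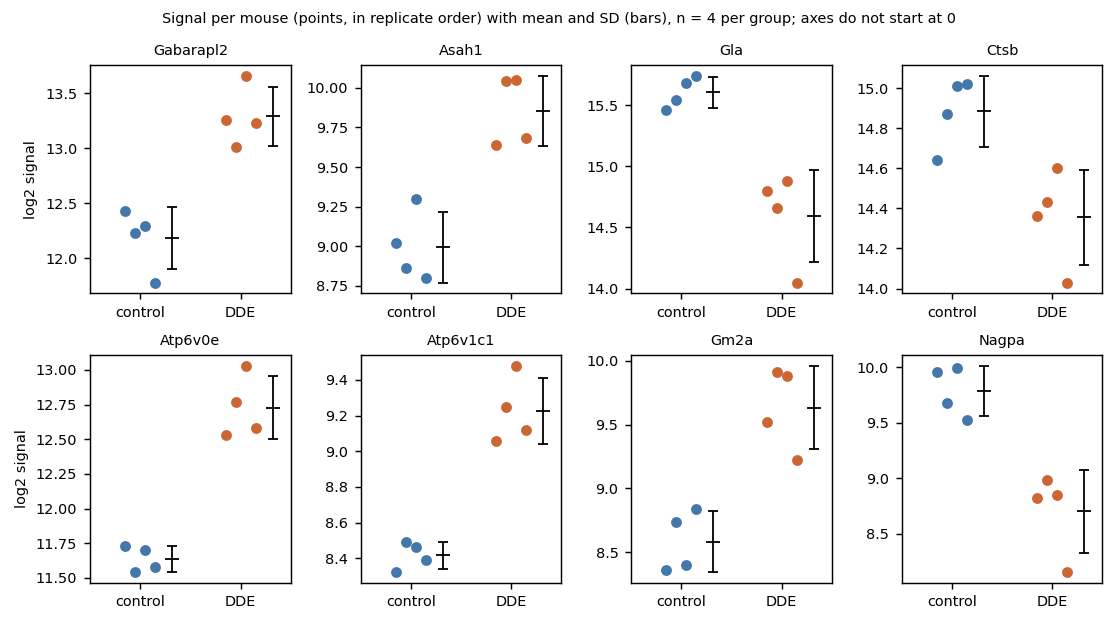
Points are log2 signals of single mice, with the mean and SD of each group beside them, for 4 genes of the list in the upper row and 4 other genes of the pathways in the lower row. The groups do not overlap in any of the 8 panels; Gla, Ctsb and Nagpa are lower after DDE, and Ctsb did not pass the test (adjusted p = 0.115).

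Hydrolases of sphingolipids and glycans moved in both directions. Asah1, acid ceramidase, which splits ceramide into sphingosine and fatty acid, read 9.02, 8.86, 9.30 and 8.80 in controls and 9.64, 10.04, 10.05 and 9.68 after DDE. All DDE values were higher, and the gene rose from 8.995 ± 0.22 to 9.85 ± 0.22, or 1.81-fold (95% confidence interval 1.42 to 2.32, limma adjusted p = 0.0347). The call held without control 3 or DDE 4 and was lost without any 1 of the other 6 mice, with adjusted p from 0.0623 to 0.104. Its other probe exceeded background in 1 control and in all DDE mice, and differed by 0.32 (adjusted p = 0.334). Smpd1, acid sphingomyelinase, which makes ceramide from sphingomyelin, had 11.89 ± 0.51 and 11.53 ± 0.20 (adjusted p = 0.6). Psap, the precursor of the saposins that present lipids to these enzymes, differed by 0.01 (95% confidence interval -0.63 to 0.65). Lipa, which frees cholesterol and fatty acids from lipoproteins and droplets, had 10.58 ± 0.32 and 10.75 ± 0.12 (adjusted p = 0.635).

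Gla, alpha-galactosidase A, removes the end galactose of globotriaosylceramide. Its signal was 15.46, 15.54, 15.68 and 15.74 in controls and 14.80, 14.66, 14.88 and 14.05 after DDE. Every DDE value was lower, and the gene fell 2.01-fold (95% confidence interval 1.48 to 2.73, limma adjusted p = 0.0397), from 15.61 ± 0.13 to 14.60 ± 0.38. The control values lay near the upper end of the scale. Only the fit without DDE 4, the lowest of the mice, kept the call, and without any 1 of the other 7 the adjusted p ran from 0.0646 to 0.11. The direction was kept in all of these fits, with changes from -1.10 to -0.83. On DDE 4, spots of Gusb in the same part of the array read 9.93 to 10.17, and its spots elsewhere 10.66 to 11.37. Map1lc3b read 11.02 and 11.08 there and 11.97 to 12.39 elsewhere. On DDE 4, 0 of these spots were called stained. Other genes named here lie in the same part, among them Ctsb, Nagpa, Gm2a, Wipi1, Cd5l and Dcn, each lowest of the DDE mice in DDE 4. The part of array position in the DDE 4 values of Gla and of these genes was not tested.

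Of the other 4 glycosidases, 3 had positive and 1 a negative change at their brightest probes, and none passed. Glb1, beta-galactosidase, read 9.08, 8.92, 9.02 and 8.59 in controls and 9.41, 9.40, 10.22 and 9.76 after DDE, without overlap (0.80, limma adjusted p = 0.105). Hexa, a subunit of beta-hexosaminidase A, read 10.76, 10.74, 10.04 and 9.64 in controls and 10.84, 11.36, 10.77 and 10.82 after DDE. Its groups were separated by no more than 0.01 at the nearest values (0.65, adjusted p = 0.349). Gaa, the acid glucosidase that breaks down glycogen, read 10.84, 10.99, 11.00 and 10.70 in controls and 10.48, 10.66, 10.42 and 10.34 after DDE, lower without overlap (-0.41, adjusted p = 0.0909). A dimmer Gaa probe, which exceeded background in 0 controls, differed by 0.45 the other way (adjusted p = 0.101), so the direction of Gaa is not settled.

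Gusb, beta-glucuronidase, cuts glucuronic acid from glycans and drug conjugates, and like Map1lc3b it had 10 spots. The spot with the highest mean differed by 0.16 (adjusted p = 0.882), but its control 4 value of 12.22 was on a stained patch, while the 10 spots of that array had a median of 9.86. The median of the 10 spots was 10.13, 10.03, 10.19 and 9.86 in controls and 10.76, 10.92, 11.10 and 10.68 after DDE, a difference of 0.81 without overlap. The change was positive at 10 of 10 spots, with 3 past the threshold on their own (smallest limma adjusted p = 0.012). As for Map1lc3b, the spots are not independent measurements of the gene. Their median was chosen after they were seen and is a description. With the mean of each gene's probes in place of the brightest, 4 genes of the list rose, Gusb, Asah1, Map1lc3b and Gabarapl2, and Gla alone fell.

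**Figure D4:**
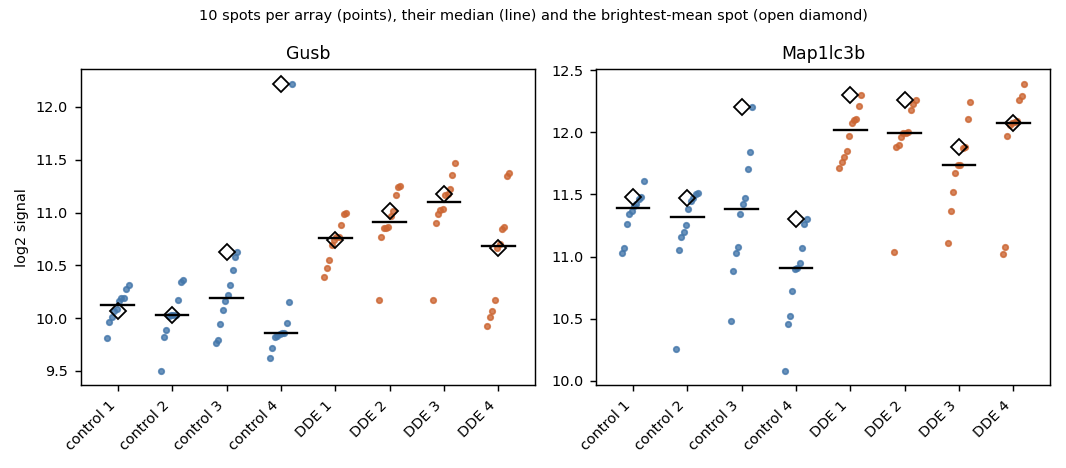
Points are the 10 spots of Gusb (left) and Map1lc3b (right) on each array in log2 signal, lines their median, and open diamonds the spot with the highest mean over arrays. The median line of every DDE mouse lies above that of every control for both genes, and the Gusb diamond of control 4 stands apart at 12.22.

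Lysosomal proteases had a median change of -0.22. None of the 10 passed the limma test. Before adjustment, 0 were higher and 3 lower, where 7.12% of genes above background were lower. Ctsb, cathepsin B, an abundant cysteine protease, read 14.64, 14.87, 15.01 and 15.02 in controls and 14.36, 14.43, 14.60 and 14.03 after DDE. Each DDE value was below all controls (-0.53, 95% confidence interval -0.87 to -0.19, adjusted p = 0.115). Ctsl, cathepsin L, read 15.61, 15.60, 15.16 and 15.16 in controls and 15.15, 15.16, 14.75 and 15.03 after DDE, with the groups meeting at 15.16 (-0.36, adjusted p = 0.334). Ctsd, cathepsin D, the main aspartic protease of lysosomes, read 12.37, 12.17, 11.70 and 11.53 in controls and 12.75, 11.67, 11.72 and 12.27 after DDE. The groups overlapped (0.16, adjusted p = 0.802), and a dimmer Ctsd probe differed by 0.78 (adjusted p = 0.163). Ctsa, a carboxypeptidase that also stabilizes beta-galactosidase, had 13.40 ± 0.29 and 12.99 ± 0.22 (adjusted p = 0.324). The remaining proteases Ctsc, Ctsz, Ctsh, Ctsf and Lgmn differed by -0.23 to 0.37, with adjusted p of 0.633 or more.

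Ctss, cathepsin S, is typical of macrophages, and it read 9.76, 9.14, 9.73 and 8.71 in controls and 8.58, 8.73, 8.89 and 8.21 after DDE (-0.73, adjusted p = 0.249). The groups overlapped through control 4. In whole liver, fewer cells of a type and less RNA per cell cannot be told apart. Of 13 Kupffer cell and macrophage markers, 8 were above background on all arrays and 0 passed in limma. Before adjustment, 0 were higher and 1 lower, where 18.4% of genes above background were higher and 7.12% lower. The 1 was Cd5l, a secreted protein of Kupffer cells, with 11.88 ± 0.35 and 11.07 ± 0.45 (adjusted p = 0.183). The mean log2 signal of these markers was 8.59 to 9.63 in controls and 8.82 to 9.19 after DDE. Leukocyte markers lay at 8.15 to 9.14 and 8.23 to 8.84, with Cd79a and Itgax above background on no array. Sinusoidal endothelial markers lay at 9.78 to 10.08 and 9.63 to 9.85, cholangiocyte markers at 7.66 to 9.45 and 7.49 to 7.68, and stellate cell markers at 8.74 to 9.18 and 9.04 to 9.79. Single stained values set the upper ends of the last 2 lists: Sox9 at 13.68 in control 4, with the other controls at 7.91 to 8.04, and Des at 13.65 in DDE 4, with the other DDE mice at 7.81 to 7.93. Krt19 read 12.12 in control 1 and 7.69 to 8.80 in the other controls. All 5 cholangiocyte markers had negative changes, but 0 passed and 0 were above background on all 8 arrays. Cldn7, with 0 stained values, read 9.15, 7.94, 7.92 and 9.67 in controls and 7.87, 7.91, 7.74 and 7.71 after DDE (-0.86, limma adjusted p = 0.397). The groups did not overlap but came as near as 7.92 and 7.91, close to background, and controls 1 and 4 stood apart from the rest. In the leukocyte list, S100a8 read 13.54 in control 3 and 7.78 to 9.61 in the other controls, with 2 control values stained. Single high values also lifted the Kupffer cell and macrophage list in both groups. There Adgre1 read 11.53 in DDE 2 and 7.91 to 8.26 in the other DDE mice, with 1 DDE value stained. C1qb read 10.68 in control 1 and 8.27 to 8.72 in the other controls, with 1 control value stained. Of the 7 stellate cell markers 1 rose, Reln (0.38, near background), and 0 fell. Before adjustment, 4 of them were higher and 1 lower, where 18.4% and 7.12% of genes above background were. Without overlap, Col3a1 was 2.10-fold higher (limma adjusted p = 0.0877), Col1a1 1.54-fold and Lrat 1.27-fold higher (0.152 and 0.144), and Dcn 1.95-fold lower (0.0767). Among genes above background 13.1% were higher and 5.74% lower without overlap. The part of these cell types in the values of the lysosomal genes was not tested. Cd5l read 10.40 in DDE 4 and 11.18 to 11.38 in the other DDE mice, and Dcn 11.58 and 12.30 to 12.61. Both lie in the same part of the array as Gla, and the part of that position was not tested.

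The regulators did not pass at their brightest probes. Tfeb was close to background. It read 7.91, 8.01, 7.68 and 7.43 in controls and 7.89, 7.21, 8.27 and 7.77 after DDE. The groups overlapped fully (0.03, 95% confidence interval -0.53 to 0.58, adjusted p = 0.961). Tfe3 read 10.72, 10.81, 11.27 and 10.24 in controls and 10.86, 11.04, 11.13 and 10.87 after DDE at its brighter probe (0.22, adjusted p = 0.634). Its dimmer probe read 8.66, 8.48, 8.78 and 8.45 in controls and 9.46, 9.72, 9.60 and 9.42 after DDE. There the groups were well apart, with a 1.94-fold rise (limma adjusted p = 0.00932). The rule used the brighter probe, and which of the pair measures Tfe3 better was not tested.

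**Figure D5:**
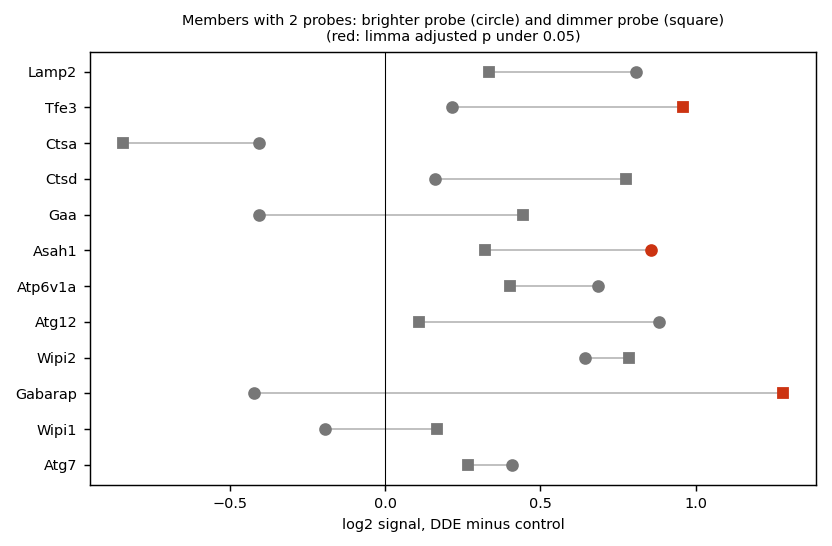
For the 12 genes with 2 probes, the log2 signal in DDE minus control at the brighter probe (circle) and the dimmer probe (square), red where the limma adjusted p was under 0.05. The signs differ for Gaa, Gabarap and Wipi1, and the dimmer probes of Tfe3 and Gabarap passed where the brighter ones did not.

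The main glycoproteins of the lysosomal membrane did not pass. Lamp1 had 15.12, 15.31, 14.64 and 15.15 in controls and 14.92, 13.81, 15.21 and 14.31 after DDE (-0.49, adjusted p = 0.567). DDE mice were spread over a wider range than controls. Lamp2, which is also needed for autophagosomes to fuse with lysosomes, read 12.41, 11.93, 11.87 and 11.32 in controls and 12.11, 12.16, 12.27 and 14.22 after DDE. The values of DDE 2, 3 and 4 were on stained spots. The difference of 0.81 (adjusted p = 0.558) was 0.30 without DDE 4, and with stained values left out it was 0.23, which rests on DDE 1 alone. The other Lamp2 probe, with no stained value, differed by 0.34 (adjusted p = 0.614).

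Other lysosome and autophagy genes, 98 measured of 107 on the wider list, included 3 that rose and 1 that fell at their brightest probes. These shares were near those of all genes, of which 2.58% rose and 0.774% fell, or 4.55% and 1.34% above background. Besides Atp6v0e and Atp6v1c1, the third to rise was Gm2a, the activator that lifts ganglioside GM2 to beta-hexosaminidase A. It read 8.36, 8.74, 8.40 and 8.84 in controls and 9.52, 9.91, 9.88 and 9.22 after DDE, 2.07-fold higher without overlap (95% confidence interval 1.52 to 2.82, limma adjusted p = 0.0377). The 1 that fell was Nagpa, which uncovers the mannose 6-phosphate tag that sorts hydrolases to lysosomes. Its values were 9.96, 9.68, 9.99 and 9.52 in controls and 8.82, 8.98, 8.85 and 8.15 after DDE, 2.13-fold lower without overlap (1.52 to 2.96, adjusted p = 0.0408). Both calls held without control 4 or DDE 4 and were lost without any 1 of the other 6 mice, with adjusted p from 0.081 to 0.108.

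By role and at the brightest probes, of 26 other hydrolases and activators 1 rose and 0 fell, with a median change of 0.08 and 14 of 26 positive. Of 30 genes of the lysosomal membrane, sorting and nutrient sensing 0 rose and 1 fell, with a median of 0.15. None of 31 other autophagy factors passed in limma at their brightest probes. Before adjustment, 9 were higher and 0 lower, where 18.4% of genes above background were higher. Their median change was 0.37 with 21 of 31 positive, against 0.07 and 54.9% for genes above background. Dimmer probes of Bnip3, Bnip3l and Wdr45 did pass, all higher (limma adjusted p = 0.0198, 0.0272 and 0.0333). So did dimmer probes of the hydrolase genes Idua and Aga and of the membrane gene Tmem192, all higher (smallest adjusted p = 0.028, 0.0326 and 0.0225). Among all probes 3% passed in either direction. With stained values left out, 7 of the 98 rose and 1 fell, while the share called among all genes went from 3.35% to 4.78%. The added ones were Cd63, Npc1, Atg9a and Bnip3l.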

How the data were processed

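The members and the gene lists were chosen with earlier results of these data known, so no list is independent evidence. Liver RNA of 4 control and 4 DDE mice was labelled with Cy3, per the labels. The deposited values are log2 signals for 42957 probes. Their array medians of 7.46 to 7.47 show a common scale, while the sources used here name no scanner, background correction, normalization or filter. The probe annotation named 33009 probes (22471 genes), and symbols in it can be old.

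All probes were fitted together with limma 3.58.1 in R 4.3.3 (lmFit, eBayes), DDE against control, no covariate, two-sided. P-values were adjusted by Benjamini-Hochberg over all 42957 probes, with a threshold of 0.05. A gene's value is its probe with the highest mean. The background level is the 0.95 quantile of 1634 receptor probes on an array. Stained spots are those whose surroundings (7 rows, 5 columns) deviate from the median of the arrays by a median of over 0.3. Genes given in every mouse are those past the threshold, the 3 of smallest p in the hydrolases, V-ATPase subunits and autophagy factors, and 12 chosen by name (Tfeb, Tfe3, Lamp1, Lamp2, Ctsb, Ctsd, Ctsl, Gaa, Ulk1, Becn1, Map1lc3b, Gabarapl1), and up to 10 past it on the wider list. Glb1, Hexa, Gusb, Gabarap, Ctss and others were added after their values were seen. The fit was tested on simulated data. The number of arrays limits the precision: the median gene of the list had a 95% confidence interval of ± 0.56.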

Additional observations from a re-analysis of the deposited data

Results flagged for a closer look

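In groups of 4, a value was singled out where its gap to the nearest of the others, as a share of the group's range, exceeded Dixon's 95% critical value, which chance gives for about 1 group in 20. Of 96 groups (48 genes), 8 had such a value, and 3 of the 8 were on stained spots. These 3 were Lamp2 in DDE 4 (14.22, the other DDE mice at 12.11 to 12.27), Atp6v1b2 in control 1 (10.71, others 7.59 to 7.84) and Atg7 in control 3 (9.77, others 8.82 to 8.91). The other 5 were on unstained spots, though Wipi1 lies in the same part of the array as Gla, where the part of position was not tested. Hexa was high in DDE 2 (11.36, others 10.77 to 10.84). Low values were those of Psap in DDE 4 (10.24, others 10.87 to 10.92), Atp6v1h in DDE 2 (8.99, others 9.53 to 9.60), Gabarap in DDE 3 at its brighter probe (12.22, others 13.08 to 13.21) and Wipi1 in DDE 4 (7.57, below background, others 8.04 to 8.10).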

How the results depend on the processing

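Quantile normalization, 75th percentile centring, leaving out dim probes or stained spots, array weights and 1 probe per gene (added after seeing the data) each kept at least 2 genes of the list higher and 1 lower. The 2 higher became 4 when a gene's probes were averaged, and 0 with an intensity trend and robust variance, with the replicate block or without control 4 and DDE 4. The 1 lower became 0 with the trend and with the replicate block. Leaving out 1 mouse gave 0 to 2 higher and 0 to 1 lower. The medians of the 3 roles moved by less than the spread between mice in all 17 alternatives run for them, though that of the hydrolases, 0.01, ran from -0.22 to 0.10 and changed sign. Deviations of same-numbered mice were weakly related (r of -0.008 to 0.085 over 20751 probes, other pairs -0.074 to 0.044). Stained spots rose with the replicate number in both groups, from 1.16% to 9.5% in controls and from 0.521% to 7.59% after DDE. The labels do not say whether equal numbers share a litter, cage or day, and a shared origin was not tested. The block left 0.0223% of all genes past the threshold against 3.35%. Over 24 named genes and 18 alternatives each, 9 values changed sign, all of genes that did not pass: Gaa with the mean of its probes (0.019), Tfeb with array weights (-0.11), without control 4 and DDE 4 (-0.077) and on leaving out 1 mouse (-0.13 to 0.22), Ctsd without control 4 and DDE 4 (-0.033) and on leaving out 1 mouse (-0.056 to 0.304), and Ulk1 on leaving out 1 mouse (-0.232 to 0.012). On the wider list 0 to 8 genes rose and 0 to 2 fell, with 7 and 1 without DDE 4. The cause of these shifts was not tested. Signals near 16 or near background limit what Gabarapl1, Gla, Tfeb and Atp6v1b2 can show.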
